A study of Mus musculus with 4 samples.

Results

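The genes described here run glycolysis, glycogen turnover and the movement of glucose and lactate across the cell membrane in the mouse parietal peritoneum. They are 38 genes listed by name. They comprise 19 glycolytic enzymes, 5 genes that set the level of fructose bisphosphates, 10 glycogen genes and 4 membrane transporters. No expression cut-off was applied, but the list was chosen with earlier results of these data known. Of the 38, 35 had a value among the 18194 genes measured in the series, and Gpi1, Eno1 and Pfkfb1 were not analysed here. Each of the 35 was called Present on all 4 arrays, so none was lost to a filter on dim signals.

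The tissue was the parietal peritoneum, the lining of the abdominal wall, from C57BL/6J mice. Wild-type mice (WT) were compared with SAP-BNP-Tg mice, which carry brain natriuretic peptide behind the serum amyloid P promoter, a promoter known to be active in the liver. Mice of each genotype received chlorhexidine gluconate (CG), an antiseptic that injures the peritoneum, or the vehicle, which is labelled ethanol/PBS. CG was injected into the abdominal cavity at 0.1% in 15% ethanol and 85% PBS, in a volume of 0.01 mL per gram of body weight, 3 times a week for 21 days. How much vehicle was given, how strong its ethanol was and how often it was injected is not labelled. Each of the 4 groups was measured on 1 Affymetrix array, and the sources used here give neither the ages nor the number of mice behind an array. With 1 array a group there is no replicate check, and the small number of arrays limits the precision. Every difference below compares those arrays, and no p-value is given for a pair of groups.

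In glycolysis, a chain of cytosolic enzymes turns glucose into pyruvate, and lactate dehydrogenase interconverts pyruvate and lactate. Many steps have several isoforms coded by separate genes. Skeletal muscle uses its own forms of phosphofructokinase (Pfkm), phosphoglycerate mutase (Pgam2), enolase (Eno3) and glycogen phosphorylase (Pygm), while most other cells use Pfkl, Pfkp, Pgam1, Eno1 or Pygl, and neurons use Eno2. Muscle also stores glycogen, and phosphorylase kinase starts its breakdown by activating the phosphorylase. The peritoneal samples included the underlying abdominal wall muscle: 25 of 25 skeletal muscle markers were Present on all 4 arrays.

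The arrays called 50.5% to 55.1% of probe sets Present. The wild-type vehicle array stood apart. Its 18S ribosomal RNA controls averaged a scaled signal of 1052, against 81.5 to 108 on the other arrays, and its actin 3' to middle ratio was 5.81, against 2.23 to 2.84. The 3' to 5' ratios lay closer together, at 1.22 against 1.07 to 1.15 for actin and 0.85 against 0.81 to 0.82 for Gapdh. That array enters the wild-type CG comparison and the vehicle genotype comparison, so for wild-type CG values of named genes whose sign or call changes against the transgenic vehicle array, that value is given too. Nppb, which codes for brain natriuretic peptide, was Absent on all 4 arrays and therefore does not check the labels. In bulk tissue, fewer cells of a type cannot be told apart from less RNA per cell, for the muscle genes as for all others.

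The promoters of 5 genes that the results turn on are shown first, as the 250 bases before the start of transcription from RefSeq, mouse build GRCm38.p6, each printed 5' to 3' on the gene's own strand. They contrast Ldhb, the gene with the largest difference between treatments, with its partner Ldha, and Pgam2, a muscle isoform, with Pgam1, its ubiquitous counterpart. Fbp2, the gene with the next largest lower value, is shown because it holds both motifs searched. Capitals mark ACGTG on either strand, which reads ACGTG or CACGT here and is the core bound by hypoxia-inducible factors, and CAGCTG, a motif bound by myogenic factors. CACGTG holds ACGTG on both strands. The windows are chr6:142507958-142508207 on the minus strand for Ldhb and chr7:46845554-46845803 on the plus strand for Ldha. They are chr13:62858401-62858650 on the minus strand for Fbp2, chr19:41911621-41911870 on the plus strand for Pgam1 and chr11:5803797-5804046 on the minus strand for Pgam2.
Ldhb: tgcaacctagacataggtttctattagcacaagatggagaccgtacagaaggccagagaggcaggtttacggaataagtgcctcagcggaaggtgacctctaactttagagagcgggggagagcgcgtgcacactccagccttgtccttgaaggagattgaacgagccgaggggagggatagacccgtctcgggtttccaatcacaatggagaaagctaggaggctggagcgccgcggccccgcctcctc
Ldha: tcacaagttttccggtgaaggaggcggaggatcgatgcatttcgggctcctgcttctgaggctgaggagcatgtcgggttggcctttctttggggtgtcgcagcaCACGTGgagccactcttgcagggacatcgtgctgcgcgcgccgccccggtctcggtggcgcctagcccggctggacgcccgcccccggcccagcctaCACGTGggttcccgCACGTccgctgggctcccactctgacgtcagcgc
Fbp2: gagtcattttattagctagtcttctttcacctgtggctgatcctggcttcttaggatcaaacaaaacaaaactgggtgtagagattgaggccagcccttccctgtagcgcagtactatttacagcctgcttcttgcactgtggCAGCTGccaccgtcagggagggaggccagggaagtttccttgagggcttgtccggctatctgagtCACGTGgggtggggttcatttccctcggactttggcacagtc
Pgam2: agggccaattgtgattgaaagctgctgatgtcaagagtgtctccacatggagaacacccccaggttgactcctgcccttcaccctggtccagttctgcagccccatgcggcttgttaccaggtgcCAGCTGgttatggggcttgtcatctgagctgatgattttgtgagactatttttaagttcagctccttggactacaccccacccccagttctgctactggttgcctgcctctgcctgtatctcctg
Pgam1: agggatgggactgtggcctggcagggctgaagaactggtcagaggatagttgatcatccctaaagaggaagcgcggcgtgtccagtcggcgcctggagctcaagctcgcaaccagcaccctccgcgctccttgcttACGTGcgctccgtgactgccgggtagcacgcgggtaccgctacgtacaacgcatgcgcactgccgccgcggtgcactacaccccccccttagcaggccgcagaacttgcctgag

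The Ldhb window holds neither motif. The Ldha window, at 1 of its 2 starts in the table, holds 5 matches to ACGTG counted on both strands. Of the 38 genes, 37 have a window in the RefSeq table, and Slc2a3 does not. ACGTG was found in the windows of 18 of the 37 genes (48.6%), against 18.5% of all 27025 genes with a window of the same length. CAGCTG was found for 10 of the 37 (27.0%), against 14.7% of all genes. The measured genes with ACGTG differed between CG and vehicle in wild type by a median log2 of -0.56 (18 genes), and those without it by -0.51 (16 genes). Those medians lay close to each other. CAGCTG was found for 2 of the 4 muscle isoforms and for 0 of their 6 counterparts. The 8 measured genes with CAGCTG were all below 0 in wild type, with a median of -0.73, against -0.40 for the 26 without it, of which 16 were below 0. Of the 8, Pfkfb2 lay at -0.05, and its sign changed with the scaling, as did that of some genes without the motif. A dimmer probe set of Gys1, another of the 8, gave 0.13. These matches describe the letters of the windows only.

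In wild-type tissue the muscle enzymes and most glycogen genes had lower signals with CG than with vehicle, as did Pkm, Tpi1, Pgk1 and Ldha. Of the counterparts of the muscle forms, Pfkl, Pfkp, Pgam1 and Eno2 had higher signals, and Pygl differed little. The same division between muscle forms and counterparts was smaller in the transgenic tissue, by an amount that depended on the processing. A gene was counted as higher or lower where its signal differed at least 2-fold, the brighter of the 2 arrays called it Present, and that signal was no lower than percentile 25 of the Present probe sets of the array. By that rule 3 genes were higher with CG in wild type (Pgam1, Eno2 and Pgm2) and 4 were lower (Ldhb, Fbp2, Gys1 and Phkg1). Those 7 of 35 stood against a background of 13.2% of all 12755 genes detected, 8.22% higher and 4.93% lower. In the transgenic tissue only Ldhb passed the rule, against a background of 5.21% of genes, 3.81% higher and 1.4% lower. Over both genotypes together 0 of the 35 were higher, where 3.03% of genes were, and Ldhb alone was lower, where 0.823% were. Against the transgenic vehicle array, 2 were higher and 6 lower in wild type, with a background of 10.8%. Just inside the threshold in wild type lay Eno2 at a log2 difference of 1.10 and just outside it Slc16a1 at -0.94. In the transgenic tissue Ldhb lay inside at -1.31 and Fbp2 just outside at -0.96.

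The median log2 difference of the 35 genes was -0.52 in wild type and -0.11 in transgenic tissue, where the median of all genes detected was 0.00 in both. In wild type 24 of the 35 lay below 0, and in transgenic tissue 21 did, where 50.1% and 49.9% of all genes did. Both differences were below 0 for 19 genes, above 0 for 9 and of opposite sign for 7. Over all genes 36.4% were below 0 in both. The absolute difference was larger in wild type for 29 of 35 genes, and for 67.5% of all genes. Across the 35 genes the differences in the 2 genotypes correlated (Pearson r = 0.773, Spearman rho = 0.722). That is a description over genes measured on the same 4 arrays, and genes are not independent replicates.

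**Figure D1:**
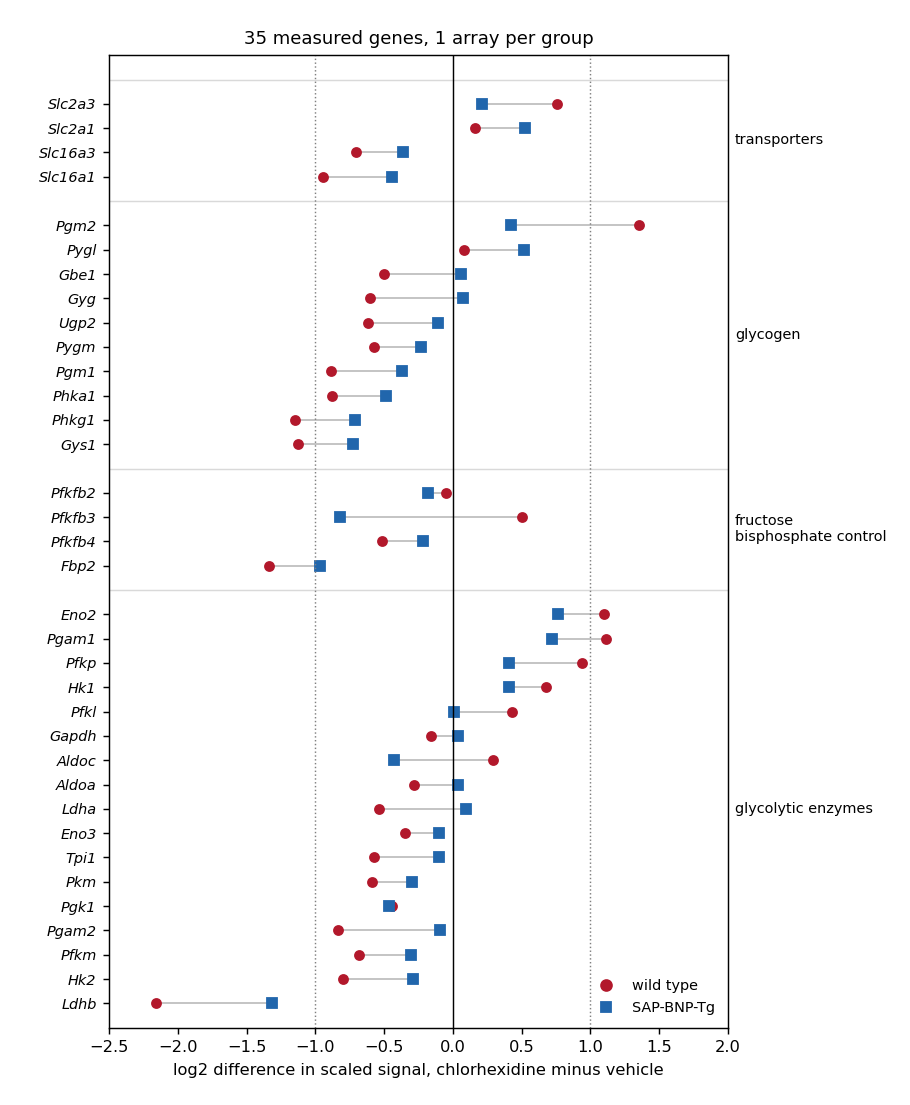
The log2 difference in scaled signal between chlorhexidine and vehicle is plotted for each of the 35 measured genes, grouped by role, with circles for wild type, squares for SAP-BNP-Tg and dotted lines at a 2-fold difference. In wild type Ldhb lies farthest left at -2.16 and Pgm2 farthest right at 1.35, and the circle lies farther from 0 than the square for 29 of the 35 genes.

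The scaling of the arrays set part of the size of the wild-type shift. Arrays were brought to a common 2% trimmed mean. The wild-type median of the 35 genes was -0.27 with the deposited scaling and -0.75 after median centring. It was -0.25 after quantile normalization and -0.10 after cyclic loess. The last of these aligns bright with bright and dim with dim signals, and under it the median of all genes was -0.08. Called genes were 3 higher and 4 lower in wild type as reported, 5 and 2 with the deposited scaling, 1 and 9 after median centring, 2 and 4 after quantile normalization and 2 and 3 under cyclic loess. Over all genes 1049 were higher and 629 lower as reported, 1586 and 318 with the deposited scaling, and 723 and 1225 after median centring. After quantile normalization 867 were higher and 751 lower, and under cyclic loess 895 and 706. In transgenic tissue 486 genes were higher and 178 lower as reported, and 329 and 320 with the deposited scaling. Across 6 scalings, 19 of the 35 genes stayed below 0 and 9 stayed above 0 in wild type. The sign changed for Aldoa, Eno3, Gapdh, Pfkfb2, Pgk1, Pygl and Slc2a1.

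Lactate dehydrogenase gave the largest difference. Ldhb codes for the H subunit, the form of heart and oxidative muscle fibres. Its signal was 2371 on the wild-type vehicle array and 531 on the wild-type CG array, and 1625 and 654 on the transgenic vehicle and CG arrays. Both vehicle arrays were thus above both CG arrays. The fold difference was 4.46 within wild type and 2.48 within transgenic tissue. All 4 of its probe sets gave the same direction, with log2 differences from -2.45 to -2.16 in wild type and from -1.42 to -1.10 in transgenic tissue. With both vehicle arrays swapped, the difference of the wild-type CG array was -1.61. Across every setting tried it ranged from -2.39 to -1.61 in wild type and from -1.86 to -1.26 in transgenic tissue.

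Ldha, the M subunit of fast muscle, had signals of 9354 and 6427 in wild type and 6939 and 7413 in transgenic tissue, in the order vehicle, CG. Its highest signal was on the wild-type vehicle array, and the other arrays lay between 6427 and 7413. The log2 differences were -0.54 and 0.10. The ratio of Ldha to Ldhb was therefore 3.07-fold higher with CG for wild type and 2.65-fold higher for transgenic tissue, which multiplying an array by a constant cannot change. On 1 array Ldha reached 81.8% of the brightest signal there. Of the 35 genes, 8 had a signal above 0.5 of the brightest on any array. Such bright probe sets may respond less than their RNA, which was not tested.

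The enzymes that open glycolysis differed by isoform. Hexokinase traps glucose in the cell as glucose 6-phosphate. Hk2, the insulin-sensitive muscle form, had signals of 3119 and 1790 in wild type and 2989 and 2448 in transgenic tissue, lower on both CG arrays (log2 differences -0.80 and -0.29). Hk1, the form of most other tissues, had 141 and 225 in wild type and 123 and 163 in transgenic tissue, higher on both CG arrays (0.68 and 0.41). Neither passed the 2-fold rule, although Hk1 did so in wild type when its 2 probe sets were averaged (1.26).

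Phosphofructokinase, the committed and most regulated step of glycolysis, showed the same division. Pfkm had signals of 7081 and 4415 in wild type and 6529 and 5286 in transgenic tissue, so both CG arrays lay below both vehicle arrays. The log2 differences were -0.68 and -0.30. Pfkp, the platelet form, had 109 and 210 in wild type and 113 and 149 in transgenic tissue, and both CG arrays lay above both vehicle arrays (0.94 and 0.40). Pfkl, the liver form, had 108 and 146 in wild type and 122 on each transgenic array. The ratio of Pfkm to Pfkp was 3.08-fold lower with CG for wild type and 1.63-fold lower for the transgenic pair.

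Phosphoglycerate mutase and enolase, late steps of the chain, also differed by isoform. Pgam2 had signals of 6338 and 3544 in wild type and 5078 and 4767 in transgenic tissue. The wild-type CG array was the lowest, and the transgenic pair lay close together (-0.84 and -0.09). Pgam1 had 268 and 579 in wild type and 235 and 387 in transgenic tissue. Both CG arrays were higher than both vehicle arrays, 2.16-fold within wild type and 1.65-fold within transgenic tissue. Its wild-type call was lost after median centring (0.88). The ratio of Pgam2 to Pgam1 was therefore 3.86-fold lower with CG for wild type and 1.76-fold lower for the transgenic pair. Eno3 had 10188 and 8000 in wild type and 8714 and 8108 in transgenic tissue, and its wild-type difference of -0.35 became 0.21 under cyclic loess. Eno2 was a dim gene, with 16.4 and 35.0 in wild type and 14.7 and 24.9 in transgenic tissue. Its wild-type difference of 1.10 passed the 2-fold rule but was 0.47 when 32 was added to each signal before taking the logarithm, and was below 1 under 3 of the scalings.

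The remaining enzymes differed less. Over all 17 measured glycolytic enzymes, wild type had a median of -0.35, which was -0.11 against the transgenic vehicle array and 0.12 under cyclic loess, and transgenic tissue one of -0.09. Aldolase A (Aldoa) and glyceraldehyde 3-phosphate dehydrogenase (Gapdh) had log2 differences of -0.29 and -0.16 in wild type and of 0.04 and 0.03 in transgenic tissue. Gapdh, often used as a reference gene, was measured through 3 control probe sets and had signals of 9387 and 8405 in wild type and 8258 and 8459 in transgenic tissue. Its wild-type difference was 0.03 against the transgenic vehicle array. Triosephosphate isomerase (Tpi1) had 7646 and 5139 in wild type and 6777 and 6313 in transgenic tissue, lowest on the wild-type CG array. Pyruvate kinase (Pkm), the last step, had 4426 and 2939 in wild type and 4411 and 3587 in transgenic tissue (-0.59 and -0.30). Phosphoglycerate kinase (Pgk1) had nearly the same difference in both genotypes by the probe set used (-0.45 and -0.47). Its 3 probe sets disagreed, from -1.36 to -0.45 in wild type and from -0.47 to 0.09 in transgenic tissue. Aldolase C (Aldoc), mainly a brain form, was dim, at 12.2 to 16.9 on the 4 arrays.

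**Figure D2:**
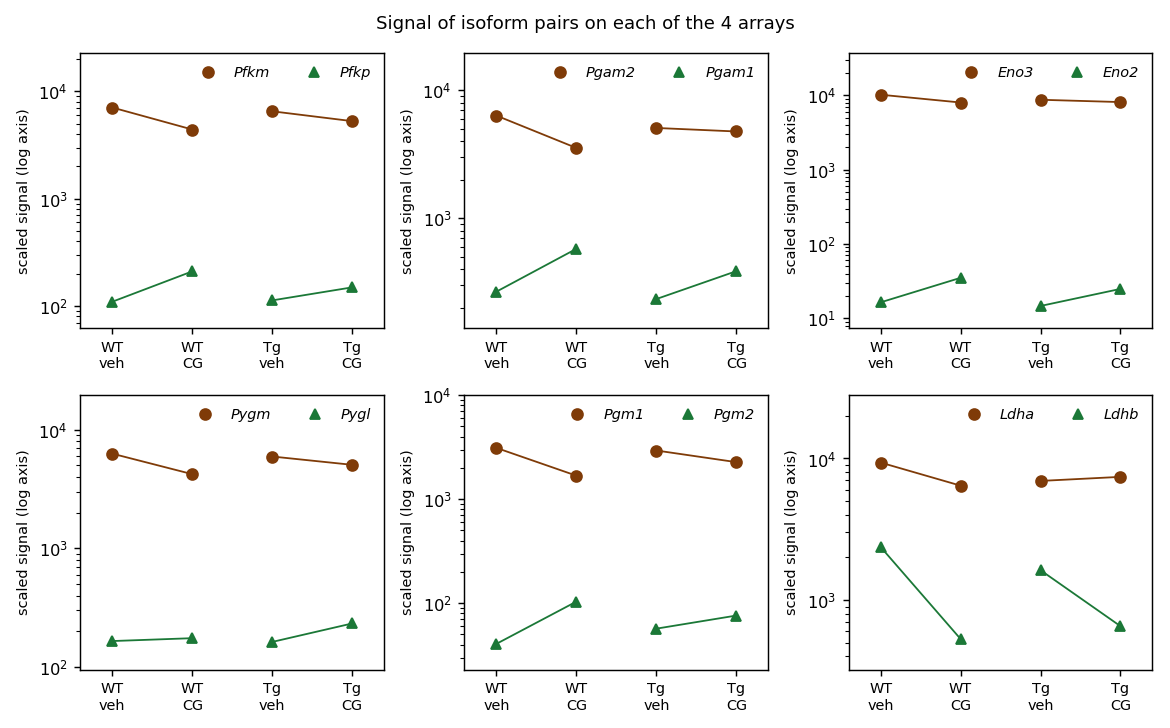
Scaled signals on a log axis are drawn for 6 pairs of isoforms on each array, with lines joining vehicle (veh) to chlorhexidine (CG) within a genotype; the height of one gene against another has no meaning between probe sets. Pgam2 goes from 6338 to 3544 while Pgam1 goes from 268 to 579 in wild type, and Ldhb goes from 2371 to 531 beside Ldha at 9354 and 6427.

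The muscle isoforms as a set were compared with their counterparts within each array, which removes any constant scaling of an array from the result. A shift that depends on brightness is not removed, because the muscle forms were much the brighter set. On the wild-type vehicle array their signals ran from 6279 (Pygm) to 10188 (Eno3). Those of the counterparts ran from 16.4 (Eno2) to 268 (Pgam1) on that array. Isoform class and brightness were therefore not separated, and the part of brightness was not tested. The log2 CG difference averaged -0.61 over Pfkm, Pgam2, Eno3 and Pygm and 0.73 over Pfkl, Pfkp, Pgam1, Eno2 and Pygl in wild type. The 4 muscle forms were all below 0 and the 5 counterparts all above 0 in both genotypes, although Pfkl in transgenic tissue was at 0.00 and lay below 0 after most other scalings. In transgenic tissue the averages were -0.18 and 0.48. The difference of the averages was -1.34 in wild type and -0.67 in transgenic tissue. With the vehicle array of the other genotype it was -1.19 and -0.82. It remained below 0 under each alternative. Under cyclic loess it was -0.73 in wild type and -0.55 in transgenic tissue. A further alternative left out every probe set with an _x_at, _s_at or _a_at suffix, which kept 4 muscle and 3 counterpart forms. The difference of the averages was then -0.71 in wild type and -0.62 in transgenic tissue. Under both alternatives the gap between the genotypes was smaller than as reported. Pygl lay at -0.15 after median centring and Eno3 at 0.21 under cyclic loess in wild type.

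The genes that set fructose bisphosphate levels did not move together. Fbp2, the muscle fructose bisphosphatase, which runs the phosphofructokinase step backwards, had signals of 715 and 283 in wild type and 742 and 380 in transgenic tissue. Both CG arrays were below both vehicle arrays, 2.52-fold within wild type and 1.95-fold within transgenic tissue, and its log2 difference stayed between -1.57 and -1.08 in wild type under every setting. The Pfkfb enzymes make and remove fructose 2,6-bisphosphate, the main activator of phosphofructokinase. Pfkfb3, the inducible form, had 134 and 190 in wild type and 283 and 160 in transgenic tissue, so the transgenic vehicle array was the highest and the treatment differences had opposite signs (0.51 and -0.82). The wild-type value of Pfkfb3 was -0.58 against the transgenic vehicle array. A dimmer probe set of Pfkfb3 gave 0.38 in wild type and -0.15 in transgenic tissue. Pfkfb4 had 245 and 171 in wild type and 266 and 230 in transgenic tissue. Pfkfb2 lay between 51.7 and 59.6 on the 4 arrays, its differences of -0.05 and -0.18 being smaller than the disagreement between probe sets of a gene.

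That disagreement was the only measure of spread within an array pair, and it covers probe sets only. It was read from the same RNA on the same arrays, so it does not measure variation between mice or repeat arrays. Over 4432 genes with at least 2 probe sets Present on all arrays, probe sets of the same gene had an SD in the log2 CG difference of 0.454 for wild type and 0.294 for transgenic tissue. Of the 35 genes, 16 had at least 2 such probe sets. For 15 of the 16 they had the same sign in wild type and for 11 of the 16 in transgenic tissue. The exception in wild type was Gys1.

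Glycogen genes had a median log2 CG difference of -0.61 in wild type and -0.17 in transgenic tissue. Of the 10, 8 were below 0 in wild type and 6 in transgenic tissue, with 1 higher and 2 lower by the 2-fold rule in wild type and 0 in transgenic tissue. Glycogen synthase (Gys1), which builds the chain, had signals of 939 and 430 in wild type and 898 and 541 in transgenic tissue. By this probe set it was lower on both CG arrays (-1.13 and -0.73), but a dimmer probe set gave 237 and 259 in wild type (0.13) and 522 and 353 in transgenic tissue (-0.56). The wild-type call of Gys1 was lost when its probe sets were averaged (-0.50) and with the deposited scaling (-0.88).

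The kinase that activates phosphorylase was measured first through its muscle subunits. The catalytic subunit Phkg1 had signals of 868 and 392 in wild type and 989 and 605 in transgenic tissue (-1.15 and -0.71). The regulatory subunit Phka1, the muscle form, had 2473 and 1345 in wild type and 2806 and 2001 in transgenic tissue (-0.88 and -0.49). For both genes each CG array lay below each vehicle array. The call of Phkg1 was lost with the deposited scaling (-0.89), and Phka1 passed the rule against the transgenic vehicle array (-1.06). Of the subunits outside the 38 genes, the shared Phkb had -0.78 and -0.35, while the liver forms Phka2 (0.01 and -0.21) and Phkg2 (-0.08 and 0.30) lay near 0 in wild type. Pygm, the muscle phosphorylase that releases glucose 1-phosphate from glycogen, had 6279 and 4219 in wild type and 5942 and 5057 in transgenic tissue. Pygl, the liver form, had 166 and 175 in wild type and 163 and 233 in transgenic tissue. The ratio of Pygm to Pygl was 1.57-fold lower with CG for wild type and 1.68-fold lower for the transgenic pair, the only one of the isoform pairs compared in which the transgenic contrast was the larger.

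Phosphoglucomutase links glycogen to glycolysis by moving the phosphate between glucose 1-phosphate and glucose 6-phosphate. Pgm1, the main form, had signals of 3109 and 1682 in wild type and 2937 and 2269 in transgenic tissue. Pgm2, which also acts on pentose phosphates, was dim and went the other way, with 40.6 and 104 in wild type and 56.9 and 76.0 in transgenic tissue. Both CG arrays were above both vehicle arrays for Pgm2, 2.55-fold within wild type and 1.34-fold within transgenic tissue. Against the transgenic vehicle array, its wild-type log2 difference of 1.35 became 0.87. The ratio of Pgm1 to Pgm2 was 4.71-fold lower with CG for wild type and 1.73-fold lower for the transgenic pair.

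None of the genes that start, branch and feed glycogen passed the rule in either genotype. Glycogenin (Gyg), the protein primer of glycogen, had 3814 and 2514 in wild type and 2954 and 3109 in transgenic tissue. The branching enzyme (Gbe1) had 409 and 289 in wild type and 334 and 349 in transgenic tissue. Ugp2, which makes the activated glucose used by the synthase, had 4212 and 2745 in wild type and 4100 and 3806 in transgenic tissue. For each of these 3 genes the wild-type CG array was the lowest of the 4.

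Both lactate carriers had lower signals with CG in both genotypes, while the values of the glucose carriers depended on the vehicle array. Slc16a1 (MCT1), the carrier that takes up lactate in oxidative fibres, had signals of 1104 and 574 in wild type and 1113 and 819 in transgenic tissue. Slc16a3 (MCT4), the carrier that exports lactate from glycolytic cells, had 194 and 119 in wild type and 242 and 188 in transgenic tissue. Both were lower on both CG arrays, with log2 differences of -0.94 and -0.44 for Slc16a1 and of -0.71 and -0.37 for Slc16a3, and none passed the rule. Against the transgenic vehicle array Slc16a3 did (-1.02). The glucose carrier Slc2a3 (GLUT3), prominent in neurons and white blood cells, had 62.4 and 105 in wild type and 175 and 203 in transgenic tissue. Its wild-type difference of 0.76 became -0.73 against the transgenic vehicle array, so its direction rests on the array that stood apart. Slc2a1 (GLUT1), the widespread basal glucose carrier, had 268 and 300 in wild type and 153 and 220 in transgenic tissue. The 3 probe sets of Slc2a1 disagreed in transgenic tissue, from -0.12 to 0.53, and its wild-type sign changed with the scaling. Its wild-type difference of 0.16 was 0.97 against the transgenic vehicle array.

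Markers of several cell types moved with these results. The summed signal of the 25 skeletal muscle markers was 194949 on the wild-type vehicle array and 148796 on the wild-type CG array, and 156714 and 153102 on the transgenic arrays. Their median log2 CG difference was -0.37 in wild type and 0.02 in transgenic tissue, and in wild type it was -0.09 against the transgenic vehicle array and 0.18 under cyclic loess. The 4 markers of slow, oxidative fibres (Myh7, Tnnt1, Tnni1 and Tnnc1) had a median of -1.33 in wild type and -0.68 in transgenic tissue, and all 4 passed the rule in wild type. Against the transgenic vehicle array none of the 4 passed, and their wild-type median was -0.69, so these calls rest on the vehicle array that stood apart. For 8 markers of fast, glycolytic fibres (Myh4, Mylpf, Tnnt3, Tnni2, Tnnc2, Actn3, Atp2a1 and Pvalb) the medians were -0.24 and 0.07, the former 0.02 against the transgenic vehicle array and 0.32 under cyclic loess. This split by fibre type was made after the values were seen. Relative to the median of the 25 markers, Ldhb differed by -1.79 in wild type and -1.33 in transgenic tissue, Fbp2 by -0.96 and -0.99, and Gys1 by -0.75 and -0.75. Eno3 differed by 0.02 and -0.13 on that scale. The markers were themselves bright: their sum of 194949 on the wild-type vehicle array compares with a brightest single signal of 11435 there. Such bright probe sets may respond less than their RNA, which was not tested for the markers either. What part changes in muscle content or fibre type had in the lower signals was not tested.

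**Figure D3:**
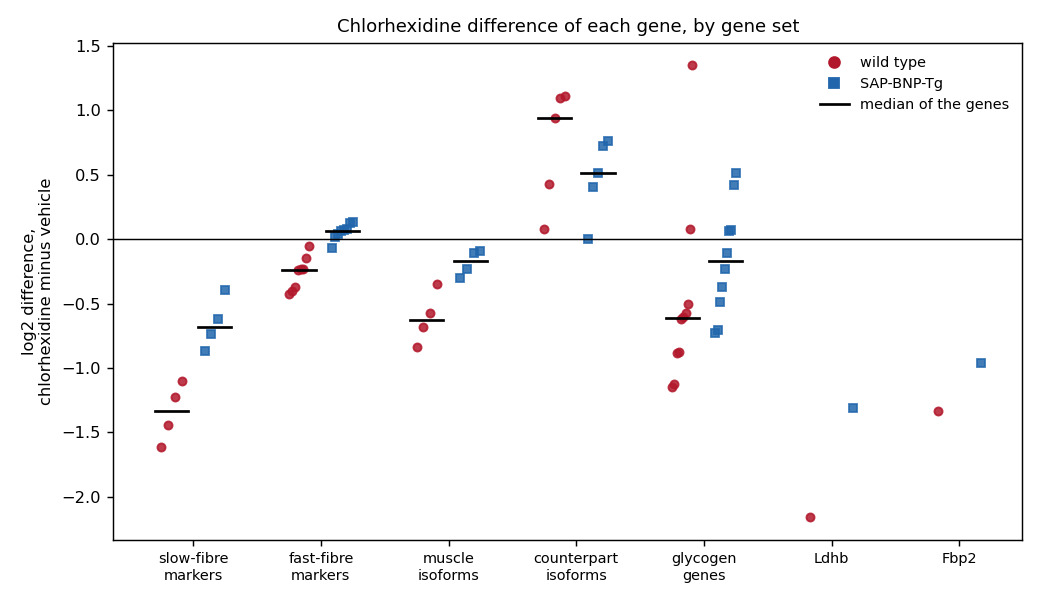
Each point is the log2 difference between chlorhexidine and vehicle of 1 gene, in wild type (circles) and SAP-BNP-Tg (squares), for muscle fibre markers and sets of metabolic genes, with bars at the medians. The 4 slow-fibre markers have a median of -1.33 in wild type and the 8 fast-fibre markers one of -0.24, with the muscle isoforms between them and Ldhb below all of them at -2.16.

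Other cells also differed in their markers. The summed signal of 11 monocyte and macrophage markers, all Present on all 4 arrays, was 5916 and 10503 in wild type and 6409 and 9936 in transgenic tissue. Fibroblast markers, 8 of 8 Present on all arrays, summed to 18742 and 36746 in wild type and 19020 and 31580 in transgenic tissue. Of 9 neutrophil markers 4 were Present on all arrays and 3 on none, and the sums were 137 and 582 in wild type and 304 and 2565 in transgenic tissue. The 8 adipocyte markers, of which 7 were Present on all arrays, summed to 18932 and 10216 in wild type and 18384 and 13343 in transgenic tissue. B and plasma cell markers, 5 measured and 3 Present on all arrays, summed to 3734 and 107 in wild type and 1628 and 192 in transgenic tissue, and all 5 were lower by the rule in both genotypes and between the vehicle arrays. The 10 mesothelial markers, all Present on all arrays, summed to 893 and 484 in wild type and 700 and 713 in transgenic tissue, and 3 were lower by the rule in wild type. The part of these cells in the higher signals of Pgam1, Pfkp, Eno2, Hk1 and Slc2a3 and in the lower signals was not tested.

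The rest of the pathway was read from lists chosen beside the 38 genes. Of 15 other glycolysis and pyruvate genes detected, 5 were lower and 0 higher in wild type by the 2-fold rule, with a median of -0.86, and 0 passed it in transgenic tissue, with a median of -0.17. The lower genes with the largest differences over both genotypes were pyruvate carboxylase (Pcx, -1.62 and -0.45), mitochondrial glycerol 3-phosphate dehydrogenase (Gpd2, -1.35 and -0.70), malate dehydrogenase (Mdh1, -1.25 and -0.47) and D-lactate dehydrogenase (Ldhd, -1.19 and -0.62). The fifth was aldose mutarotase (Galm, -1.26 and 0.39), named after its values were seen. The wild-type calls of Pcx (-0.96) and Mdh1 (-0.95) were lost against the transgenic vehicle array. Pyruvate dehydrogenase and its control had 12 genes detected, of which 11 were below 0 in each genotype. The kinases Pdk2 (-1.02 and -0.57) and Pdk4 (-1.11 and -0.17), which switch that complex off, were the 2 lower by the rule in wild type, Pdk4 not against the transgenic vehicle array (-0.96).

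Among 9 other sugar and lactate carriers detected, 2 were higher and 2 lower in wild type and 0 in transgenic tissue. Slc2a4 (GLUT4), the insulin-responsive carrier of muscle and fat, had signals of 1769 and 712 in wild type and 1919 and 1311 in transgenic tissue. Slc2a12 was the other lower one, at 160 and 61.7 in wild type, and Slc2a10 was higher, at 23.8 and 51.1. Neither passed against the transgenic vehicle array (-0.86 and 0.34). Emb (embigin), a partner protein that brings lactate carriers to the membrane, went from 110 to 495 in wild type and from 120 to 191 in transgenic tissue. Of 19 other glycogen genes detected, 2 were higher and 2 lower in wild type, with medians of -0.08 and -0.11, the former 0.17 with the deposited scaling. The lower ones were the kinase Gsk3a, which inhibits glycogen synthase (-1.15 and -0.11), and Nhlrc1, the ubiquitin ligase malin (-1.08 and -0.34). Neither of them passed against the transgenic vehicle array (-0.46 and -0.51). Stbd1, which ties glycogen to membranes for its breakdown, had log2 differences of 1.07 and 1.13 and was the only one of the 19 called in both genotypes. The other higher gene was Ppp1r3b, which targets a phosphatase to glycogen (1.86 and -0.65, Absent on the wild-type vehicle array).

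Genes of the pentose phosphate pathway and of the hypoxia response had medians near 0. The 9 pentose phosphate genes detected had medians of 0.05 and 0.22, with none past the rule in either genotype. The 19 hypoxia-response genes outside glycolysis had medians of 0.11 and 0.07, with 2 higher and 3 lower in wild type and 0 in transgenic tissue. These medians lay within the 0.25 by which the deposited scaling moved the median of all genes in wild type. Hif1a, the oxygen-sensing factor itself, had signals of 518 and 1259 in wild type and 502 and 805 in transgenic tissue. Its prolyl hydroxylase Egln1, which marks it for breakdown, had 1402 and 588 in wild type and 1087 and 780 in transgenic tissue. The other higher gene was Car12 (1.81 and 1.02), a membrane carbonic anhydrase, and the other lower ones were Higd1a (-1.05 and -0.59) and Epas1 (-1.10 and -0.39). Epas1, the second oxygen-sensing factor, was named after its values were seen. The wild-type median of the hypoxia list was 0.39 against the transgenic vehicle array, and 3 genes were higher and 0 lower, with Egln1 at -0.89, Higd1a at -0.95 and Epas1 at -0.82.

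The genotypes were compared under each treatment. On the vehicle arrays the 35 genes had a median log2 difference, SAP-BNP-Tg minus wild type, of -0.06, and 2 passed the 2-fold rule, against a background of 1.46% of genes, 0.956% higher and 0.502% lower. Slc2a3 was 2.80-fold higher and Pfkfb3 2.12-fold higher on the transgenic array. Just outside lay Slc2a1, at -0.81. These values rest on the wild-type vehicle array, which stood apart. Slc2a3 was also higher on the transgenic CG array (0.94), which does not involve that array, while Pfkfb3 was not by the probe set used (-0.25). The other probe set of Slc2a3 that was Present on all arrays gave 0.64 on the vehicle and 0.72 on the CG arrays. The other probe set of Pfkfb3 gave 0.86 on the vehicle and 0.34 on the CG arrays, so its direction on the CG arrays depends on the probe set. With the probe sets of a gene averaged, the vehicle difference was 1.77 for Slc2a3, then too dim for the rule, and 0.97 for Pfkfb3, then just under 2-fold.

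On the CG arrays 0 of 35 genes passed the rule, against a background of 1.75% of genes, 0.784% higher and 0.964% lower, and the median difference was 0.27, where that of all genes was -0.03. The 4 muscle isoforms averaged 0.24 and the 5 counterparts -0.28, a difference of 0.52. Of the glycogen genes 9 of 10 were above 0, from Phkg1 at 0.63 down, and Pgm2 was below 0 at -0.45. Over all genes 53.2% were below 0. Among the 15 other glycolysis genes 3 were higher on the transgenic CG array, namely Galm (1.72), Bpgm (1.11) and Me1 (1.05), which were named after their values were seen. The median of the slow-fibre markers was -0.02 on the CG arrays and -0.71 on the vehicle arrays. The CG difference itself lay higher in the transgenic tissue for 24 of the 35 genes, and for 51.2% of all genes. The median by which it lay higher was 0.34 over the 35 genes, where all genes had 0.02. This median was -0.11 with the deposited scaling, 0.12 after quantile normalization and 0.05 under cyclic loess, so its direction rests on the scaling. The wild-type CG and the vehicle genotype comparison share the wild-type vehicle array.

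**Figure D4:**
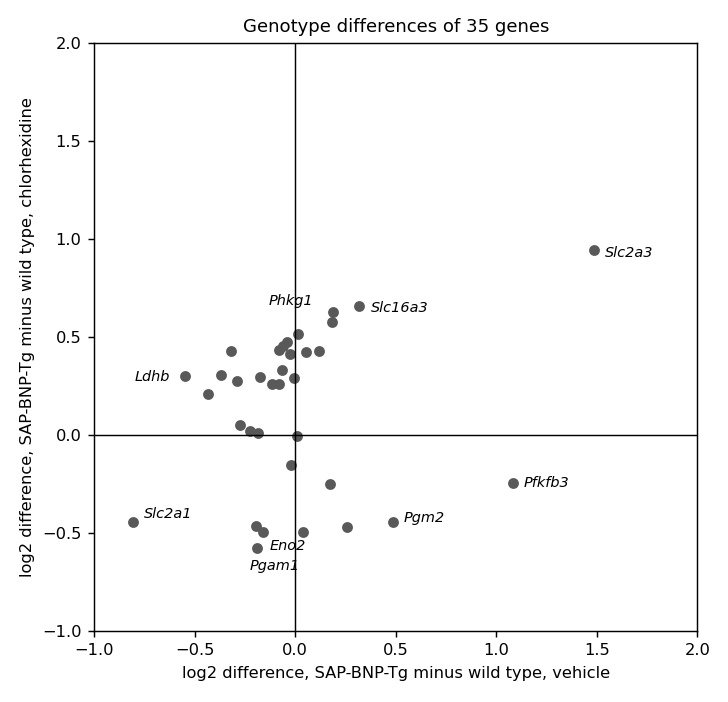
Each of the 35 genes is placed by its log2 difference between SAP-BNP-Tg and wild type on the vehicle arrays (horizontal axis) and on the chlorhexidine arrays (vertical axis). Slc2a3 lies at 1.49 and 0.94, Pfkfb3 at 1.08 and -0.25, and most glycogen and muscle genes lie above 0 on the vertical axis.

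One additive model of treatment and genotype could be fitted over all 4 arrays with limma, with 1 residual degree of freedom. It takes any difference in response between the genotypes as error. With Benjamini-Hochberg adjustment over 12755 genes it called 12 genes for treatment (0.0941% of genes) and 0 for genotype. None of the 35 genes passed for treatment at an adjusted p of 0.05, while 10 had an unadjusted p under 0.05, against 23% of all genes. The lowest adjusted p by limma was 0.0728 for Ldhb, with a coefficient of -1.74 and a standard error of 0.287. Fbp2 followed, with a coefficient of -1.15, a standard error of 0.228 and an adjusted limma p of 0.0896. For genotype 2 of the 35 had an unadjusted p under 0.05, Slc2a3 and Slc2a1, against 4.96% of all genes, and the lowest adjusted limma p was 0.719. With a variance prior that follows signal, the same model called 8 of the 35 for treatment, in a fit that called 19.5% of all genes.

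**Figure D5:**
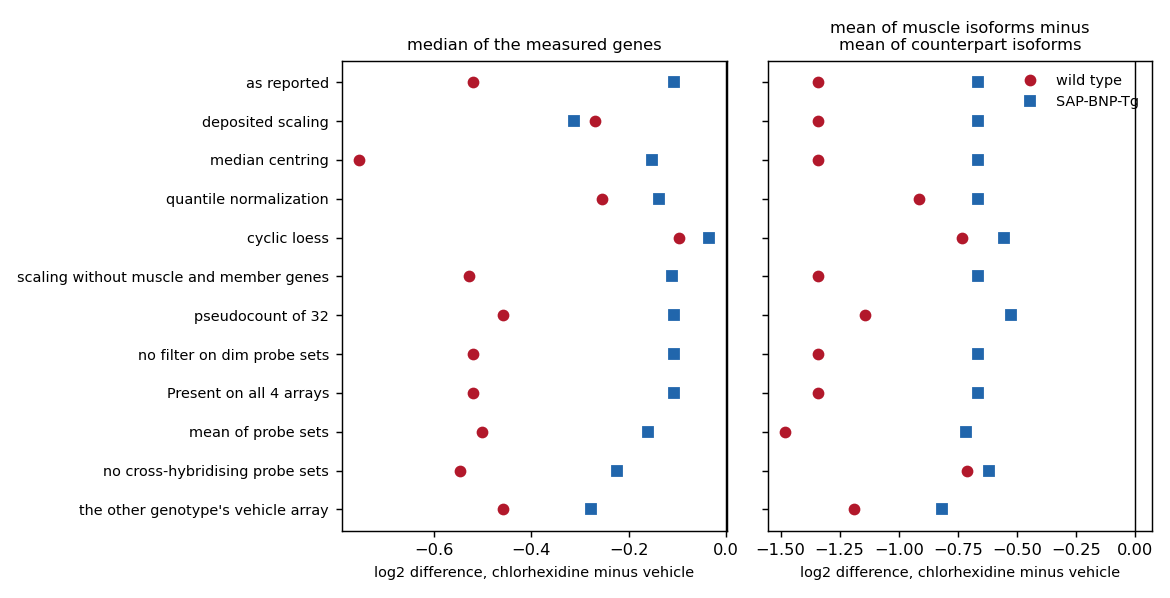
The median log2 difference between chlorhexidine and vehicle of the measured genes (left) and the mean of the muscle isoforms minus that of their counterparts (right) are given under each processing alternative, with circles for wild type and squares for SAP-BNP-Tg. The wild-type median runs from -0.75 after median centring to -0.10 under cyclic loess, and the isoform contrast stays at or below -0.71 in wild type. The row named no cross-hybridising probe sets leaves out every probe set with an _x_at, _s_at or _a_at suffix.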

How the data were processed

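Total RNA from the parietal peritoneum was biotin-labelled with a 3' in vitro transcription kit, per the labels' protocols. One Affymetrix array was hybridised for each of 4 groups. The deposited values are a signal intensity per probe set on a linear scale with a Present, Marginal or Absent call, per the file headers. Their algorithm and scaling: not given in the sources used here. Each array was multiplied to a common 2% trimmed mean, a floor of 0.1 was applied before log2. Control probe sets were left out except those of Gapdh. Of 45101 probe sets, 34958 had 1 symbol in the platform table, 932 had several and 9160 were not in it. Symbols were updated through Entrez identifiers to RefSeq GRCm38.p6 for 34754 probe sets. The brightest probe set by mean log2 stood for a gene. Genes Present on at least 1 array numbered 12755. limma 3.58.1 in R 4.3.3 fitted treatment and genotype, and numpy 2.4.6 and pandas 2.3.3 did the rest. Alternatives were other scalings, a pseudocount of 32, filters, probe-set rules, fold thresholds and the other vehicle array. The scripts were tested on simulated data. Each member was named, and of each other list up to 4 genes past the 2-fold rule with the largest mean difference over both genotypes. The members and lists were chosen with earlier results of these data known.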

Additional observations from a re-analysis of the deposited data

Results flagged for a closer look

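In 7 of the 35 genes the CG array lay on one side of the vehicle array in wild type and on the other side in SAP-BNP-Tg tissue. With 1 array a group, these differences between genotypes were not tested, and most rest on values close to 0. Of all genes detected, 50.1% were below 0 in wild type and 49.9% in transgenic tissue, but only 36.4% in both. Opposite signs were therefore not particular to the 35 genes. The CG difference in transgenic tissue minus that in wild type, in log2, was -1.33 for Pfkfb3, the inducible regulator of fructose 2,6-bisphosphate. It was -0.73 for the dim gene Aldoc. It was 0.68 for glycogenin (Gyg), 0.64 for Ldha, 0.56 for the branching enzyme Gbe1, 0.32 for Aldoa and 0.19 for Gapdh. For these last 5 genes the transgenic difference changed sign under at least 1 scaling of the arrays. By a dimmer probe set, the CG differences of Pfkfb3 were 0.38 in wild type and -0.15 in transgenic tissue. By the probe set used they were 0.51 and -0.82.

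Outside the 35 genes, Ppp1r3b, which targets a phosphatase to glycogen, had a difference of -2.51. Its signals were 13.6 and 49.3 in wild type, the first of them Absent, and 19.2 and 12.2 in transgenic tissue. Slc2a10 had -1.17, with signals of 23.8 and 51.1 in wild type and 40.3 and 38.6 in transgenic tissue.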

How the results depend on the processing

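No paired analysis was possible because each group has 1 array, and leaving out an array leaves no comparison. For wild type, 7 genes were called as reported (13.2% of all genes), 20 at 1.5-fold (31.5%) and 1 at 3-fold (4.48%). With probe sets of an _x_at, _s_at or _a_at suffix left out, 3 of 26 were called (13.2%). For transgenic tissue the 1 called (5.21% of all genes) became 3 with the deposited scaling (5.09%) and 2 after median centring (5.06%). It became 2 with the wild-type vehicle array (7.62%), 6 at 1.5-fold (15.1%) and 0 at 3-fold (1.59%). Without the suffixed probe sets 0 were called (5.05%), because Ldhb, the 1 called, has no other probe set. For genotype on the vehicle arrays the 2 called (1.46% of all genes) became 1 after median centring (1.63%) and 1 with 32 added to each signal (0.4%). They became 0 with probe sets averaged (2.49%), 1 without the suffixed probe sets (1.63%) and 0 at 3-fold (0.274%). Slc2a3 lost its call with probe sets averaged (1.77), where its signal was too dim. It also lost it without the suffixed sets (2.17), where it was Absent on both vehicle arrays. In both cases its difference was larger than the 1.49 reported. On the CG arrays the 0 called (1.75% of all genes) became 1 after median centring (1.83%), 1 after quantile normalization (1.85%) and 3 at 1.5-fold (7.76%). The muscle minus counterpart contrast moved to -0.73 under cyclic loess and -0.71 without the suffixed probe sets in wild type. In transgenic tissue these 2 alternatives gave -0.55 and -0.62. Between the CG arrays the contrast moved to 0.13 without the suffixed sets. With the deposited scaling the vehicle genotype median moved to 0.35 and the difference of the CG differences to -0.11. For treatment, limma called 1 of the 35 with the deposited scaling, 8 with a variance trend, 11 with 32 added and 11 on genes Present on all 4 arrays, and for genotype 1 in each of the last 3. Over all genes limma called for treatment 12 as reported, 2489 with the trend, 2359 with 32 added and 0 under cyclic loess. It called 5.66% of all genes with the deposited scaling and 21.4% of those Present on all 4 arrays. With the deposited scaling the median of all genes stood at 0.25 in the wild-type, -0.20 in the transgenic and 0.37 in the vehicle genotype comparison, and after median centring at -0.23 in wild type. Between the vehicle arrays 122 genes were higher and 64 lower as reported, 459 and 7 with the deposited scaling, 89 and 119 after median centring, 92 and 92 after quantile normalization and 98 and 95 under cyclic loess. Between the CG arrays 100 were higher and 123 lower as reported, 132 and 101 after median centring and 130 and 106 after quantile normalization. The cause of these shifts was not tested. Of the single-gene values of the 35 under all alternatives, 1561 stayed called or, where not called, moved by less than the SD between probe sets, 89 moved further, 39 became called and 25 were no longer called. The filters and fold thresholds leave every log2 difference of the 35 unchanged, so this tally does not measure stability. Many of the 39 became called only because the threshold was lowered to 1.5-fold. The number of arrays limits the precision of every value.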
